A study of Mus musculus with 9 samples.

Results

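Amino acid transporter genes were examined in neutrophils of tumor-bearing mice, sorted from 3 compartments, the bone marrow, the blood and the tumor in the pancreas. Members were the rows of the deposited table whose symbols belong to the Slc1a, Slc3a, Slc7a, Slc36a, Slc38a and Slc43a families, with Slc7a2 and Slc7a11 left out, which gave 40 genes of the 46517 listed. The choice was made on gene symbols and used no measured value. C57BL/6 mice had received cells of a single luciferase-expressing tumor line, derived from KPC mice, by injection into the pancreas, and are called OT (orthotopic transplanted) mice. All 9 libraries came from such mice at day 27, with 3 libraries per compartment, each from a pool of 5 animals in an independent experiment. By the study's methods the 3 compartments of an experiment were sorted from the same pool, so they share animals, but the labels do not tie a library to an experiment. No library from a mouse without a tumor was analysed here, so every comparison is between compartments of tumor-bearing mice. In the methods, cells of every compartment were live (Dapi-), CD45+, Ly6G+ and Ly6C+ and lacked the lymphoid markers CD3, B220 and NK1.1, whereas the labels of the bone marrow libraries name cells high in Ly6G.

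Cells take up amino acids through carriers that differ in substrate, in coupling ion and in the membrane they sit in. Slc3a2 (CD98 heavy chain) carries no substrate itself but brings light chains of the Slc7 family to the plasma membrane, where they exchange leucine, glutamine, arginine and other amino acids. Slc1a4 and Slc1a5 exchange small neutral amino acids with sodium, Slc38 carriers move glutamine and alanine with sodium, and some Slc36 and Slc38 members sit in the lysosome, where they export amino acids or report their level to mTORC1.

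The file held log2 FPKM, the log2 of fragments scaled to gene length (kilobases) and to library size, from which whole numbers of reads per gene were recovered. Between 4580807 and 7949367 reads per library were found. For most genes the length was the genomic span with introns (28 of the 40 members), so a transporter with long introns has a low FPKM for its reads. Levels are therefore compared between genes as exon RPKM, the reads divided by the kilobases of merged exons and by the scaled library size (per 1000000 reads). Read counts were not corrected for PCR duplicates, and intervals given with them cover counting error only.

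Marker genes were read in every library to check the sort. The 10 neutrophil markers (among them S100a8, S100a9 and Csf3r) took 10627 to 13500 RPM (reads per 1000000 of the scaled library size) in tumor, 42603 to 45789 RPM in blood and 53465 to 57576 RPM in bone marrow. The 10 markers of tumor epithelium (Epcam, keratins and others) took 2719 to 5112 RPM in tumor, 25.4 to 174 in blood and 10.1 to 13.3 in bone marrow. The 8 fibroblast markers took 972 to 1116 RPM in tumor against at most 12.5 elsewhere, and the 12 markers of pancreatic acinar cells took 651 to 2386 RPM in tumor against at most 9.67 elsewhere. In tumor, 0 markers of epithelium and of fibroblasts and 1 of acinar cells were without a read. Macrophage markers summed to 409 to 585 RPM in tumor, 1494 to 1671 RPM in blood and 441 to 496 RPM in bone marrow, and Csf1r alone took 183 to 226 RPM of this in tumor and 1091 to 1233 in blood. Not every macrophage marker followed that sum. By limma-voom (described below), 3 of the 8 tested were called higher in tumor than in blood, C1qa and Mrc1 with the largest folds, and 2 lower (Csf1r and Apoe). Both counts are near the shares of all genes, 33.1% higher and 21.9% lower. The median log2 fold change was 0.84, against 0.39 for all genes. Blood libraries stood out for platelet markers (580 to 793 RPM, against 3.27 to 12.3 in the others), for red cell markers (284 to 576 RPM, against 11.3 to 129) and for lymphocyte markers (96.0 to 171 RPM, against 6.45 to 72.5). Endothelial markers took 83.3 to 133 RPM in tumor, 103 to 151 in blood and 17.6 to 27.5 in bone marrow, but in blood most of the sum was Vwf (65.0 to 108 RPM). Limma-voom called 5 of the 6 higher in tumor than in blood (33.1% of all genes) and 1 lower (Vwf, 21.9%). The median was 4.28, against 0.39 for all genes, and Tek and Cdh5 had 0 reads in every blood library. Tek, Kdr and Cdh5 had at most 3 reads in any library outside tumor and passed the 5-read filter (described below) through tumor alone. These cells may express amino acid transporters too. Their part in every tumor and blood difference below was not tested, and with bulk RNA more cells of a type and more RNA per cell cannot be told apart.

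**Figure D1:**
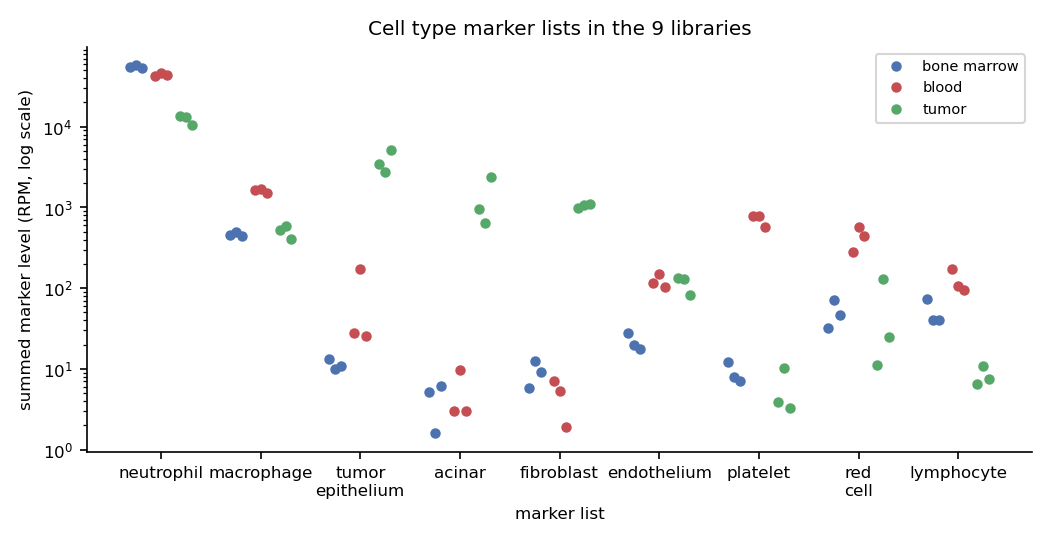
Summed level of 9 marker lists in RPM (log axis) for each of the 9 libraries, coloured by compartment, with 1 point per library. Neutrophil markers are lowest in tumor at 10627 to 13500 RPM, while epithelial, acinar and fibroblast markers are at 651 RPM or more in every tumor library and at 174 RPM or less in every other one.

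Summed over the 40 members, transporter reads took 1033 to 1207 RPM in the 3 tumor libraries, 742 to 845 RPM in blood and 680 to 714 RPM in bone marrow, and no compartment overlapped another. With these scaled library sizes, the gap between tumor and blood rested on Slc3a2, the heavy chain. Without it the sums were 701 to 775 RPM in tumor, 669 to 750 in blood and 615 to 649 in bone marrow, so tumor and blood overlapped. This overlap depends on the authors' scaling, with a mean factor of 1.15 for tumor and 0.841 for blood. With plain library totals the tumor sums stand higher relative to blood. Without a read in any library were 6 members (Slc1a6, Slc1a7, Slc7a12, Slc7a13, Slc38a8 and Slc38a11). Another 4 stayed below 5 reads in every library, with at most 4 reads for Slc3a1 and Slc7a15, 3 for Slc7a10 and 1 for Slc7a14. Differences were tested with limma on the log2 FPKM values of the 7794 genes over 0 in at least 3 libraries, a filter that only 8 members passed. The study's own filter and test (at least 5 reads in a library, limma-voom), applied here to the recovered reads, covered 17714 genes and 30 members. Both fits used the Benjamini-Hochberg adjustment over all genes tested, and a gene was called at an adjusted p under 0.05.

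Against blood, limma called 5 of the 8 members higher in tumor (Slc1a5, Slc3a2, Slc7a6, Slc38a7 and Slc43a3), where 28.1% of all genes tested were called higher, and 2 lower (Slc38a2 and Slc38a10), where 34.5% were called lower. The median log2 fold change was 1.53 for these members and -0.17 for all genes. The filter bears on these numbers, because Slc7a6, Slc38a7 and Slc43a3 would not have passed it without the tumor libraries. Of the other 5 members 2 were called higher and 2 lower, with a median of -0.17, so limma's count and median are not read against the values for all genes. Limma-voom called 13 of 30 members higher, against 33.1% of all genes, and 3 lower, against 21.9%, with a median of 1.38 for the members and 0.39 for all genes. Its filter was passed through the tumor libraries alone by 4 members (Slc1a4, Slc7a9, Slc38a3 and Slc38a4), and of the other 26 it called 12 higher and 3 lower, with the median again at 1.38. The 13 comprised 4 of 5 light chains tested, the heavy chain Slc3a2, all 3 cationic transporters tested, 2 of 5 Slc1 members (Slc1a4 and Slc1a5), 2 of 9 Slc38 members (Slc38a1 and Slc38a7) and 1 of 3 Slc43 members (Slc43a3). Without any 1 tumor library Slc7a6 and Slc38a7 no longer passed the filter on log2 FPKM, and limma called 3 members higher, while limma-voom called 11 to 14 higher across all single libraries left out.

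Against bone marrow, limma called 5 of 8 members higher in tumor (Slc1a5, Slc3a2, Slc7a6, Slc38a7 and Slc43a2), against 22.4% of all genes, and 0 lower, against 32.9%, with medians of 0.85 and -0.21. Without the 3 members that passed through the tumor libraries, 3 of 5 were higher and the median was 0.76. At an unadjusted p under 0.05 limma had 0 lower as well, and 1 was called lower without tumor replicate 3. Without tumor replicate 1 or 2 limma called 2 members higher, and without tumor replicate 3 it called 3. Limma-voom called 12 of 30 members higher, against 29.3% of all genes, and 2 lower, against 21.0%, with medians of 1.09 and 0.27. Of the 26 members that passed without the tumor libraries it called 11 higher and 2 lower, with a median of 0.75. Tumor is shared by both contrasts, so they are not independent of each other. When library sizes were taken as plain totals, without the authors' scaling, the median of all genes moved from -0.17 to 0.24 against blood and from -0.21 to 0.21 against bone marrow. Limma then called 5 of 8 members higher than in blood (2892 of 7794 genes) and 6 of 8 higher than in bone marrow (2580 of 7794 genes). It no longer called Slc38a2 and Slc38a10 lower than in blood, where 1916 of 7794 genes were lower.

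**Figure D2:**
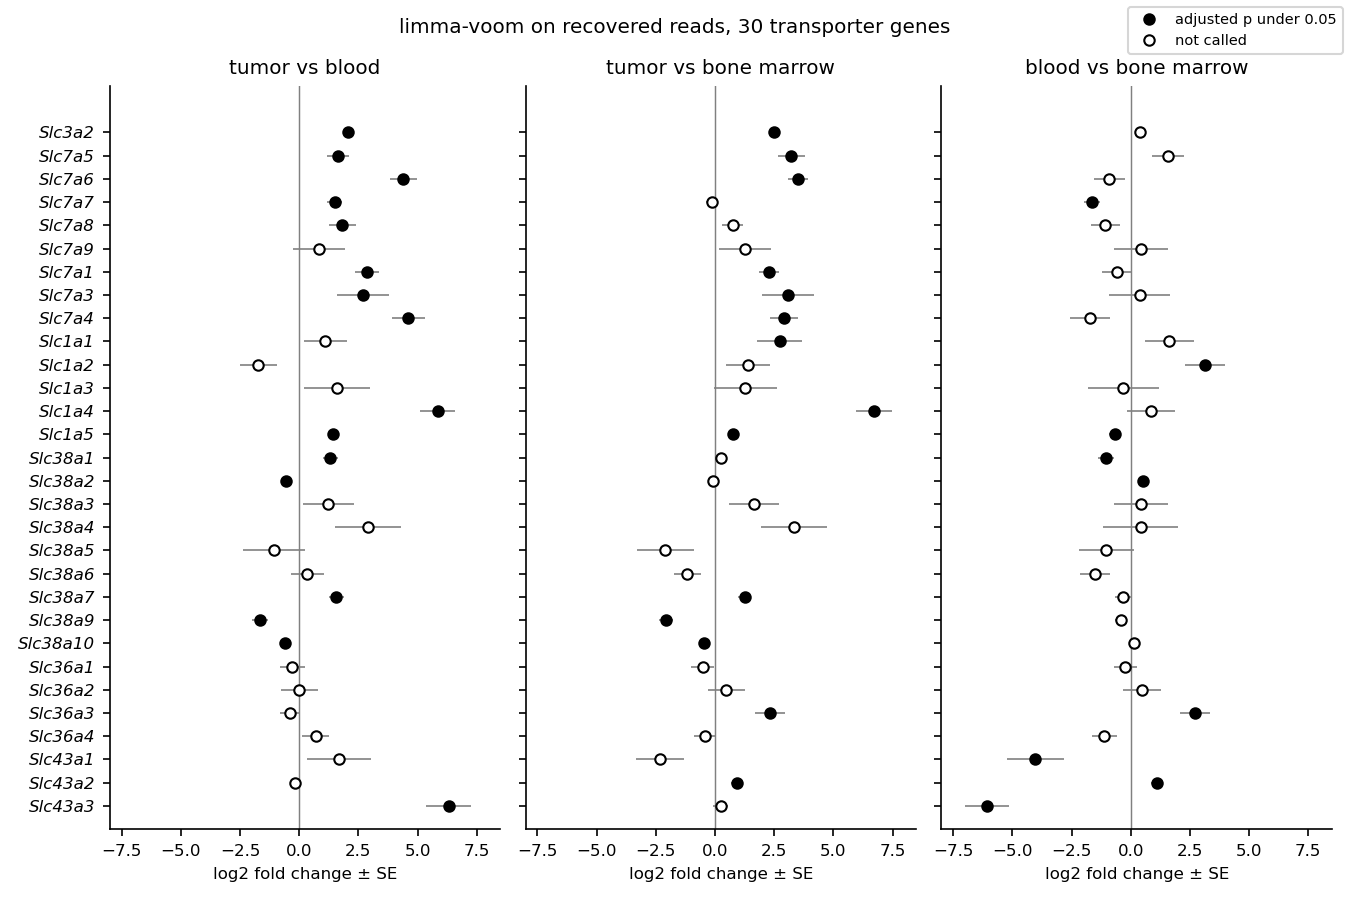
Log2 fold changes with standard errors from limma-voom for the 30 members tested, in 3 contrasts side by side, with filled points for an adjusted p under 0.05 and open points for members not called. Slc3a2, Slc7a6, the cationic transporters, Slc1a4, Slc1a5 and Slc38a7 lie to the right of 0 in both tumor contrasts, while Slc38a9 lies to the left in both.

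Among the heteromeric transporters, the heavy chain was the most abundant member in tumor. Slc3a2 (chr19:8706882-8723369, minus strand, GRCm38) stood at 84.9, 127 and 94.1 exon RPKM in the tumor libraries, at 26.7, 24.8 and 20.6 in blood and at 17.1, 18.5 and 18.6 in bone marrow. Every tumor library was above every other library. Its log2 FPKM was 2.07 ± 0.17 (SE) higher in tumor than in blood (limma, adjusted p = 2.6e-05) and 2.48 ± 0.17 higher than in bone marrow (adjusted p = 1.3e-05), while blood and bone marrow differed by 0.40 (adjusted p = 0.083).

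Of the light chains tested here, the one that changed most was Slc7a6 (y+LAT2, chr8:106168857-106198706, plus strand), which exchanges cationic amino acids for neutral ones. It had 429, 344 and 595 reads in tumor, 22, 25 and 4 in blood and 45, 24 and 35 in bone marrow. The tumor libraries stood clear of the rest, and blood and bone marrow overlapped. On the log2 FPKM scale the difference was 4.45 ± 0.68 against blood (limma, adjusted p = 0.00072) and 3.53 ± 0.68 relative to bone marrow (adjusted p = 0.003). Slc7a6 passed the filter of this fit through the tumor libraries alone. Limma-voom, whose filter it passed without them, also called it higher in both contrasts.

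Slc7a5 (LAT1, chr8:121881150-121907694), the main carrier of leucine and other large neutral amino acids, had fewer reads. Its levels were 2.82, 3.50 and 2.17 exon RPKM in tumor, 1.09, 1.01 and 0.575 in blood and 0.524, 0.0953 and 0.366 in bone marrow. The 3 compartments did not overlap. By limma-voom it was 1.65 ± 0.47 higher in tumor than in blood (log2, adjusted p = 0.0081) and 3.22 ± 0.57 higher than in bone marrow (adjusted p = 0.00034), and blood exceeded bone marrow by 1.57 (adjusted p = 0.095).

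Slc7a7 (y+LAT1, chr14:54369442-54417780), the cationic light chain of macrophages and epithelia, followed another course. Its levels were 6.17, 5.43 and 7.52 exon RPKM in tumor and 6.27, 7.09 and 7.50 in bone marrow, but 4.12, 1.73 and 1.74 in blood. Blood was thus the low compartment, and tumor and bone marrow overlapped. Limma-voom gave a log2 difference of 1.49 ± 0.34 for tumor against blood (adjusted p = 0.0018), of -0.13 ± 0.24 for tumor against bone marrow (adjusted p = 0.68) and of -1.62 ± 0.34 for blood against bone marrow (adjusted p = 0.0023). Exons of Oxa1l on the opposite strand cover 7.0% of its exon bases, and no source used here states that reads were counted by strand.

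Slc7a8 (LAT2), another neutral exchanger, had 61, 106 and 50 reads in tumor, 20, 10 and 10 in blood and 23, 31 and 62 in bone marrow. It was 1.83 ± 0.57 higher in tumor than in blood (limma-voom, log2, adjusted p = 0.014), a call lost without blood replicate 2 (adjusted p = 0.0763) or 3 (adjusted p = 0.0524), and its difference from bone marrow was 0.75 ± 0.43 (adjusted p = 0.17). Slc7a9, which pairs with Slc3a1 in kidney and gut, had 9 reads in 1 tumor library and 0 elsewhere. Slc7a15 had 3, 3 and 4 reads in tumor and 0 in the other 6 libraries, at least 2.18-fold (blood) and 2.92-fold (bone marrow) higher in tumor when 3 reads over a group are taken as the floor.

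Among 5 light chains, the most frequent transcript differed between the compartments. Slc7a11, left out of the members, was not counted in these shares. Of the summed exon RPKM of the 5 light chains Slc7a5, Slc7a6, Slc7a7, Slc7a8 and Slc7a10, Slc7a7 made up 23.7% to 27.5% in tumor, 42.4% to 59.4% in blood and 68.9% to 77.0% in bone marrow. Slc7a6 made up 45.5% to 60.0% in tumor, 6.38% to 24.0% in blood and 10.1% to 16.4% in bone marrow. So of these 5, Slc7a7 was first in every library of bone marrow and blood, and Slc7a6 in every tumor library. The ratio of Slc3a2 to these 5 light chains was 3.26 to 5.82 in tumor, 3.58 to 7.05 in blood and 1.71 to 2.01 in bone marrow, so it was lowest in bone marrow and overlapped between blood and tumor. These shares are given as a description with no test, and the proteins were not measured.

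**Figure D3:**
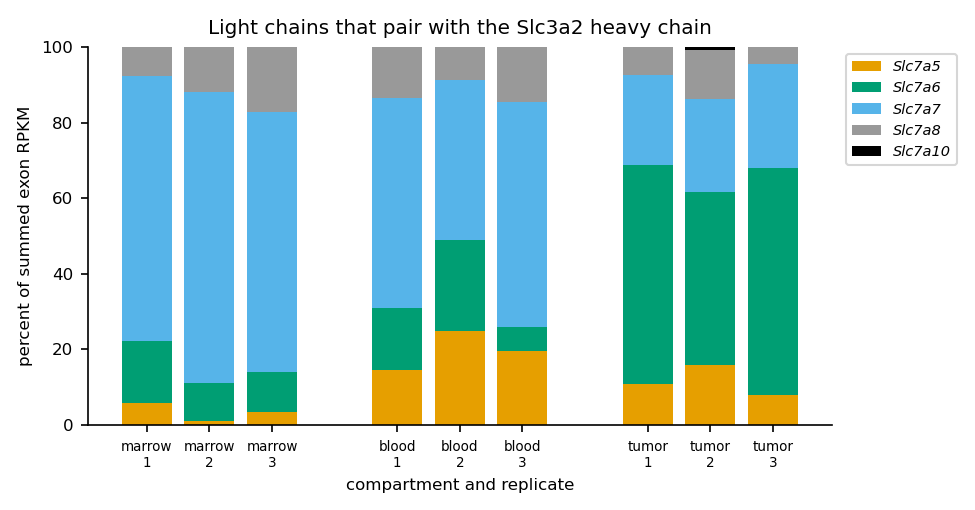
Share of each of 5 light chains in their summed exon RPKM (percent), 1 bar per library, grouped by compartment. Slc7a7 fills 42.4% or more of every bone marrow and blood bar, and Slc7a6 fills 45.5% or more of every tumor bar.

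The cationic transporters of the Slc7 family, which work without a heavy chain, were higher in tumor. Slc7a1 (CAT1, chr5:148327410-148399904), the widely expressed arginine carrier, had 146, 118 and 112 reads in tumor, 11, 10 and 11 in blood and 34, 9 and 30 in bone marrow. Tumor lay above both, by 2.87 ± 0.52 against blood (limma-voom, log2, adjusted p = 0.00034) and 2.28 ± 0.43 relative to bone marrow (adjusted p = 0.0005).

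Slc7a4, a related protein whose transport activity is unsettled, had 28, 43 and 39 reads in tumor, 0, 3 and 0 in blood and 6, 3 and 3 in bone marrow. Tumor had 110 reads against 3 in blood, a ratio of 24.0 after scaling (95% counting interval 8.01 to 118), and limma-voom called it against blood (adjusted p = 8.5e-05). Against bone marrow the difference was 2.90 ± 0.59 (log2, adjusted p = 0.001). P2rx6 on the opposite strand covers 13.3% of its exon bases. Slc7a3 (CAT3) had 15, 4 and 22 reads in tumor, 0, 5 and 0 in blood and 6, 0 and 0 in bone marrow, so single libraries overlapped. Its calls (2.71 ± 1.09 against blood, adjusted p = 0.049, and 3.08 ± 1.09 relative to bone marrow, adjusted p = 0.029, limma-voom) were lost in 7 and 5 of 12 alternatives. They were lost without tumor replicate 1 (adjusted p = 0.105 and 0.0702), tumor replicate 3 (adjusted p = 0.13 and 0.0858), bone marrow replicate 2 (adjusted p = 0.066 and 0.123) or bone marrow replicate 3 (adjusted p = 0.0615 and 0.138), and the first also without blood replicate 1 (adjusted p = 0.164) or 3 (adjusted p = 0.19).

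In the Slc1 family the neutral exchangers rose and the glutamate carriers were scarce. Slc1a5 (ASCT2, chr7:16781340-16798274), a glutamine exchanger, stood at 13.3, 14.3 and 16.2 exon RPKM in tumor, 4.61, 6.01 and 5.37 in blood and 10.1, 6.86 and 9.09 in bone marrow. The 3 compartments did not overlap, with blood lowest and tumor highest. Limma gave 1.46 ± 0.19 (log2) for tumor against blood (adjusted p = 0.0003), 0.76 ± 0.19 for tumor against bone marrow (adjusted p = 0.0097) and -0.70 ± 0.19 for blood against bone marrow (adjusted p = 0.019). The last of these was lost without blood replicate 1, bone marrow replicate 1 or bone marrow replicate 3, with adjusted p up to 0.0683.

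Slc1a4 (ASCT1, chr11:20302180-20332713, minus strand), which carries serine, alanine and cysteine, was close to absent outside tumor. It had 136, 97 and 143 reads in tumor, 0, 1 and 3 in blood and 0, 1 and 1 in bone marrow. Against the 2 reads of bone marrow, the 376 tumor reads gave a ratio of 164 (95% counting interval 45.2 to 1363). Limma-voom called it higher in tumor than in blood (5.85 ± 0.73, log2, adjusted p = 1.6e-05) and than in bone marrow (adjusted p = 6.2e-06), and all 12 alternatives kept both calls. Slc1a4 passed the limma-voom filter through the tumor libraries alone, and limma without a filter also called it higher in both contrasts. In tumor replicates 1, 2 and 3, epithelial markers took 3461, 2719 and 5112 RPM, and Slc1a4 stood at 5.58, 3.27 and 4.59 exon RPKM. With 3 libraries these values cannot tell which cells gave the Slc1a4 reads, and this was not tested.

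Glutamate carriers of the family (Slc1a1, Slc1a2 and Slc1a3) had at most 20 reads in any library. Slc1a1 was called higher in tumor (6, 2 and 3 reads) than in bone marrow (0 reads, at least 3.21-fold lower), with an adjusted p of 0.029 in limma-voom. Slc1a2 was called higher in blood (4, 11 and 9 reads) than in bone marrow (2, 1 and 0 reads), a ratio of 10.7 (95% counting interval 3.24 to 55.4, adjusted p = 0.013). The first call was lost in 5 of 12 alternatives, among them without tumor replicate 1 (adjusted p = 0.0845) or any bone marrow library (adjusted p up to 0.086), and the second without bone marrow replicate 3 (adjusted p = 0.0803). The gene 4430402I18Rik on the opposite strand covers 31.9% of the exon bases of Slc1a1. Slc1a3 had 16 reads in 1 bone marrow library and 20 in 1 tumor library, and was not called.

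**Figure D4:**
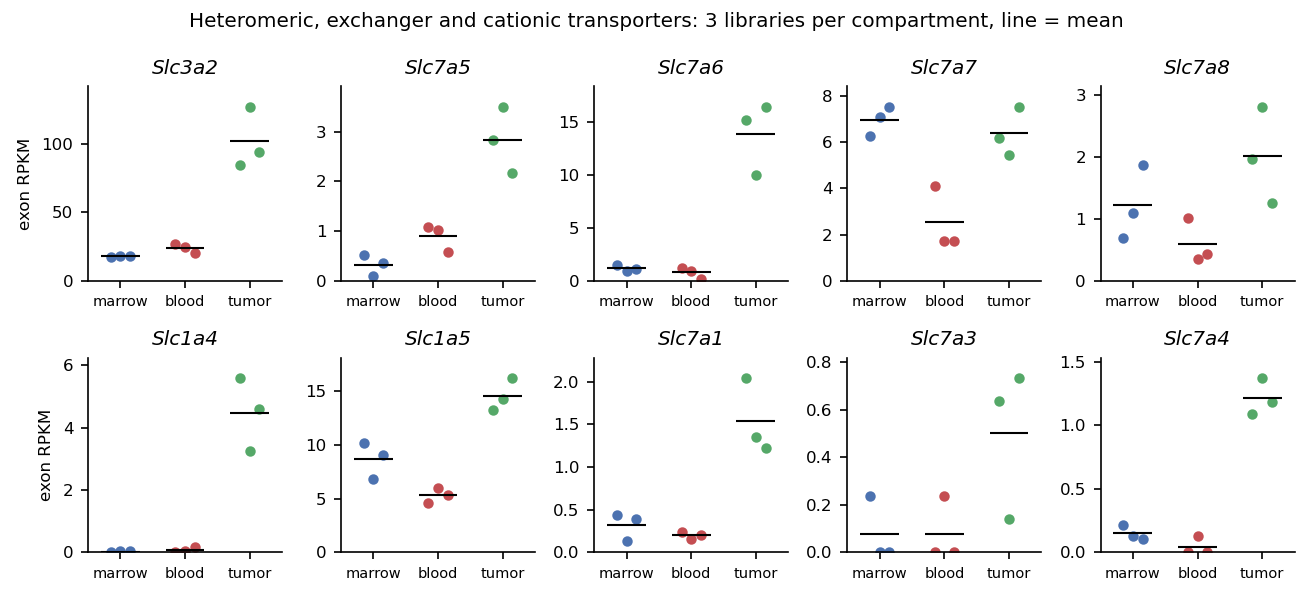
Exon RPKM of 10 heteromeric, exchanger and cationic transporters, 1 panel per gene with its own axis from 0, 1 point per library and a line at the mean of 3. Slc3a2 reaches 127 exon RPKM in tumor and at most 26.7 elsewhere, Slc7a6 and Slc1a4 lie near 0 outside tumor, and Slc7a7 is low in blood alone.

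The sodium-coupled Slc38 family moved in both directions. Slc38a2 (SNAT2, chr15:96687392-96699730), a glutamine and alanine importer known to be induced by amino acid shortage, was the most abundant member in bone marrow and blood. It stood at 34.2, 33.5 and 26.3 exon RPKM in tumor, 50.7, 46.8 and 40.8 in blood and 33.1, 34.8 and 29.7 in bone marrow. Blood was above the other compartments, which overlapped. Limma gave -0.56 ± 0.13 (log2) for tumor against blood (adjusted p = 0.0066) and 0.50 ± 0.13 for blood against bone marrow (adjusted p = 0.018), and tumor and bone marrow differed by -0.06 ± 0.13 (adjusted p = 0.72). With plain library totals the tumor value was -0.11 against blood (adjusted p = 0.397) and 0.39 relative to bone marrow (adjusted p = 0.0173), so the call against blood was lost and the direction against bone marrow turned. Blood against bone marrow lost its call without blood replicate 1 or 2 or bone marrow replicate 3, with adjusted p up to 0.0645.

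Slc38a1 (SNAT1), which lies near Slc38a2 on chromosome 15, had its lowest levels in blood. It stood at 1.48, 1.88 and 1.20 exon RPKM in tumor, 0.764, 0.488 and 0.606 in blood and 1.36, 0.882 and 1.53 in bone marrow. Tumor exceeded blood by 1.31 ± 0.32 (limma-voom, log2, adjusted p = 0.0034), and blood against bone marrow stood at -1.05 ± 0.33 (adjusted p = 0.028), a call lost without blood replicate 2 or 3 or bone marrow replicate 1 or 3, with adjusted p up to 0.137. Slc38a4, the third member on that chromosome stretch, had 24, 0 and 17 reads in tumor and 0 in the other 6 libraries, at least 8.95-fold (blood) and 12.0-fold (bone marrow) higher in tumor over the group. Limma-voom did not call it (adjusted p = 0.092 and 0.06), but with plain library totals it was called higher in tumor than in bone marrow (adjusted p = 0.0415). Slc38a4 passed the limma-voom filter through the tumor libraries alone, and tumor replicate 2 had 0 reads.

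Carriers of the lysosome went apart. Slc38a7 (SNAT7, chr8:95835920-95853539, minus strand), which exports glutamine from lysosomes, stood at 5.25, 4.85 and 4.50 exon RPKM in tumor, 1.28, 1.64 and 1.90 in blood and 1.55, 1.75 and 2.94 in bone marrow. All 3 tumor libraries were above the rest. The log2 difference was 1.61 ± 0.30 against blood (limma, adjusted p = 0.0021) and 1.28 ± 0.30 relative to bone marrow (adjusted p = 0.008). Slc38a7 passed the filter of limma through the tumor libraries alone, but that of limma-voom without them, and limma-voom also called it higher in both contrasts.

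Slc38a9 (chr13:112660751-112738749), the lysosomal arginine sensor upstream of mTORC1, had 64, 33 and 49 reads in tumor, 89, 97 and 101 in blood and 156, 177 and 181 in bone marrow. Tumor was the lowest compartment, at -1.65 ± 0.33 against blood (limma-voom, log2, adjusted p = 0.0007) and -2.07 ± 0.31 relative to bone marrow (adjusted p = 7e-05), and it was lower in all 12 alternatives. Slc36a1 (PAT1), a proton-coupled carrier of lysosomes and the plasma membrane, had 9, 21 and 44 reads in tumor, 17, 19 and 15 in blood and 31, 23 and 27 in bone marrow. Its groups overlapped and it was not called against blood (-0.29 ± 0.51, adjusted p = 0.66) or bone marrow (-0.52 ± 0.47, adjusted p = 0.38). Slc36a4 was likewise not called, with log2 differences of 0.69 ± 0.56 and -0.43 ± 0.44.

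Slc38a10, a less studied family member and the third in mean level in tumor, stood at 12.1, 13.1 and 19.1 exon RPKM in tumor, 19.0, 23.5 and 23.1 in blood and 18.4, 18.6 and 23.6 in bone marrow. Tumor replicate 3 overlapped both other compartments. The difference was -0.59 ± 0.21 (log2) against blood (limma, adjusted p = 0.038), a call that 9 of 18 alternatives lost, and -0.47 ± 0.21 against bone marrow (adjusted p = 0.088), which limma-voom called (-0.46 ± 0.18, adjusted p = 0.0497). With plain library totals the value against blood was -0.14 (adjusted p = 0.637), and the call was also lost without blood replicate 2 or 3, bone marrow replicate 1 or 2 or tumor replicate 1 or 2, with adjusted p up to 0.113. Slc38a3, Slc38a5 and Slc38a6 had at most 8, 20 and 36 reads in a library and were not called in any contrast.

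Of the Slc36 family, Slc36a3 was called. It had 60, 71 and 38 reads in tumor, 57, 37 and 51 in blood and 21, 3 and 10 in bone marrow. Bone marrow was the low compartment, 2.32 ± 0.64 below tumor (limma-voom, log2, adjusted p = 0.0075) and 2.71 ± 0.64 below blood (adjusted p = 0.0056), and tumor and blood overlapped. Slc36a2 had at most 17 reads in a library and was not called.

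The Slc43 family held the steepest contrast between blood and the other compartments. Slc43a3 (chr2:84936579-84958509, plus strand), known as a carrier of purine nucleobases rather than amino acids, had 205, 331 and 146 reads in tumor and 162, 120 and 198 in bone marrow, but 4, 2 and 0 in blood. Tumor and bone marrow overlapped, and their log2 difference was 0.26 ± 1.11 (limma, adjusted p = 0.86). Tumor exceeded blood by 6.92 ± 1.11 (adjusted p = 0.0009), and blood against bone marrow stood at -6.66 ± 1.11 (adjusted p = 0.0021). The size rests on the small constant added before the log, and with a pseudocount of 1 FPKM the difference from tumor was 1.23. Slc43a3 would not have passed limma's filter without the tumor libraries. It passed that of limma-voom without them, and limma-voom also called both differences from blood.

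Slc43a1 (LAT3), which lies near Slc43a3 on chromosome 2 and carries large neutral amino acids, had 36, 7 and 38 reads in bone marrow, 1, 1 and 0 in blood and 0, 21 and 10 in tumor. Bone marrow exceeded blood by a ratio of 30.3 (95% counting interval 8.13 to 255, limma-voom adjusted p = 0.019), a call that 6 of 12 alternatives lost, among them leaving out any blood library (adjusted p up to 0.0946) or bone marrow replicate 1 or 3 (adjusted p up to 0.0665). Slc43a2 (LAT4), with similar substrates, stood at 5.63, 5.86 and 3.22 exon RPKM in tumor, 5.65, 5.05 and 5.37 in blood and 2.43, 2.59 and 2.38 in bone marrow. Here bone marrow was low, by 0.94 ± 0.26 (log2) below tumor (limma, adjusted p = 0.015) and 1.12 ± 0.26 below blood (adjusted p = 0.0095). The difference from tumor missed the threshold without tumor replicate 1 (adjusted p = 0.0533) or 2 (adjusted p = 0.0506), and Gm45606 on the opposite strand covers 9.18% of its exon bases.

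**Figure D5:**
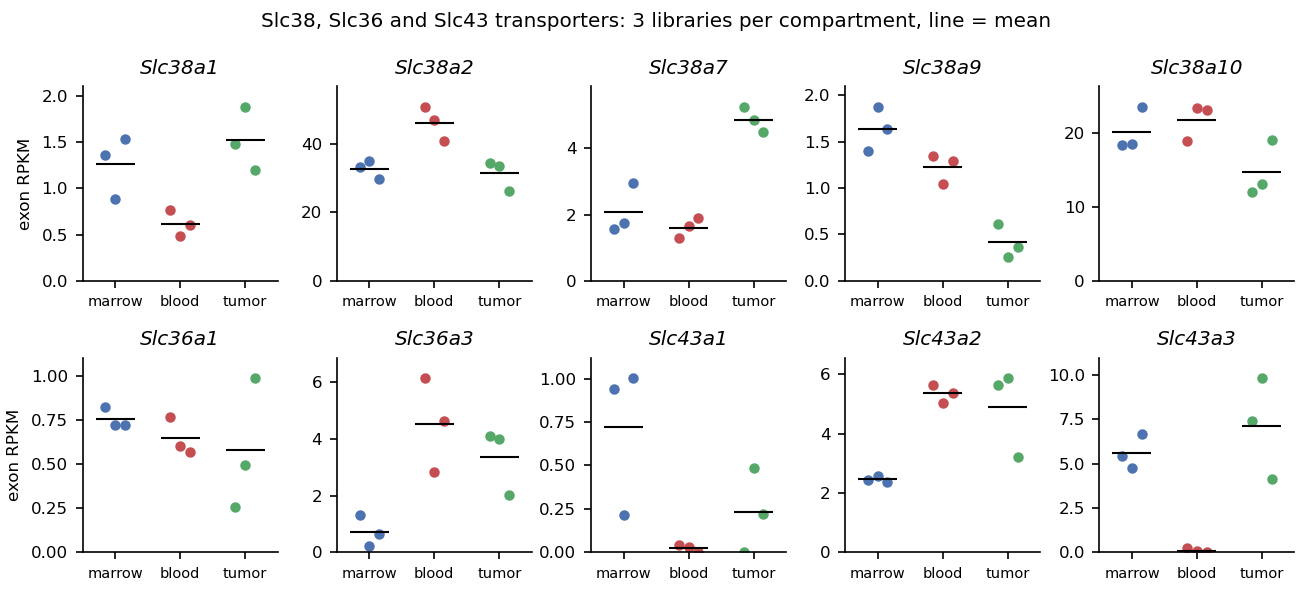
Exon RPKM of 10 members of the Slc38, Slc36 and Slc43 families, 1 panel per gene with its own axis from 0, 1 point per library and a line at the mean of 3. Slc38a7 is highest and Slc38a9 lowest in tumor, Slc38a2 is highest in blood, and Slc43a3 is near 0 in blood with 4.12 exon RPKM or more in every other library.

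Between the compartments outside the tumor, limma called 2 of 8 members higher in blood than in bone marrow (Slc38a2 and Slc43a2), against 20.6% of all genes, and 2 lower (Slc1a5 and Slc43a3), against 23.6%. Limma-voom called 4 of 30 higher (Slc1a2, Slc36a3, Slc38a2 and Slc43a2), against 13.8%, and 5 lower (Slc1a5, Slc7a7, Slc38a1, Slc43a1 and Slc43a3), against 16.4%. The member median was -0.27 and that of all genes 0.08. Slc1a5, Slc7a7, Slc38a1 and Slc43a3 thus had their lowest levels in blood.

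The same 3 members had the highest mean levels in every compartment, in different orders. Slc38a2 led in blood (46.1 ± 4.98 exon RPKM, SD, n = 3), followed by Slc3a2 (24.0 ± 3.10) and Slc38a10 (21.8 ± 2.5), whose spreads overlapped. In bone marrow Slc38a2 led as well (32.6 ± 2.58), followed by Slc38a10 (20.2 ± 2.92) and Slc3a2 (18.1 ± 0.825). In tumor Slc3a2 led (102 ± 22.2), followed by Slc38a2 (31.3 ± 4.41), and then Slc38a10 (14.8 ± 3.79), Slc1a5 (14.6 ± 1.48) and Slc7a6 (13.8 ± 3.41), which did not differ beyond their spread.

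Short promoter stretches are shown for the members called in a tumor contrast that held a known stress motif before their start. The core of the C/EBP-ATF response element, through which ATF4 acts on amino acid shortage, was searched as TGATGNAA, and the core of the hypoxia response element, bound by HIF-1, as ACGTG, both on either strand of windows from 250 bases before to 50 after each RefSeq start (GRCm38.p6). The table held 41 windows of 30 members. TGATGNAA was in 3 windows of 2 members (Slc1a4 and Slc7a7) and in 3.97% of all 32851 windows. ACGTG was in 15 windows of 13 members and in 19.6% of all windows. The 13 included Slc3a2, Slc7a6 and Slc38a7, which were higher in tumor, and Slc38a10, which limma called lower than in blood, but also Slc1a6 and Slc1a7, which had 0 reads. Capitals mark the matches, TTGCATCA is TGATGCAA read on the other strand, and CACGTG holds ACGTG on both strands.
Slc1a4, chr11:20332699-20332728, minus strand: tgcctcctgcgTTGCATCAtctccagcctg
Slc7a7, chr14:54417927-54417956, minus strand: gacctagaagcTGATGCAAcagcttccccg
Slc7a7, chr14:54418067-54418096, minus strand: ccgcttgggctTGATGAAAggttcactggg
Slc38a7, chr8:95853509-95853536, minus strand: tgattcaggctCACGTGttacttgagtc
Slc7a6, chr8:106168844-106168870, plus strand: cggtgcgagtgACGTGgcgtgggcggg
Slc7a6, chr8:106168604-106168619, plus strand: ACGTGgagccccagag
Slc3a2, chr19:8714046-8714072, minus strand: caagacaaattCACGTttgttattcta
Slc38a10, chr11:120151485-120151511, minus strand: agaccccgcccCACGTcccgccgtccc
The matches began 4 bases before the start in Slc1a4, 1 and 141 bases before a start in Slc7a7, 34 in Slc38a7, 66 and 250 before a start in Slc7a6, 164 in Slc3a2 and 149 in Slc38a10. They are matches of letters, and binding was not measured.

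Other genes of amino acid handling were counted from lists of carriers, of lysosomal sensing by mTORC1 and of amino acid enzymes. It was not determined which list genes passed limma's filter through the tumor libraries alone. Limma's counts and medians for these lists in the tumor contrasts carry that limit. Of 27 other carriers, 10 were tested by limma, and against blood 0 were higher (28.1% of all genes) and 6 lower (34.5%) in tumor. Limma-voom called 4 higher (33.1% of all genes) and 8 lower (21.9%) of the 22 it tested. Its largest rises were Slc6a9 (5.75 ± 0.97, adjusted p = 0.0002) and Slc25a15 (5.69 ± 0.81, adjusted p = 5e-05), each with at most 1 read in a blood library. Of the 4, Slc6a9 and Slc32a1 had at most 4 and 2 reads in any library outside tumor. Both passed the filter through the tumor libraries alone, so the count of 4 is not read against the share of all genes. Slc6a20b fell most (-3.24 ± 0.97, adjusted p = 0.011), with at most 5 reads in any library, and passed the filter through blood alone. At an unadjusted p under 0.05 limma had 1 higher (Mfsd12). The largest falls by limma were those of Slc25a12 (-1.68 ± 0.19, log2, adjusted p = 0.00015), the mitochondrial aspartate-glutamate carrier, and Slc25a38 (-1.30 ± 0.34, adjusted p = 0.01), the mitochondrial glycine carrier. The list's median by limma was -0.67, against -0.17 for all genes. With plain library totals limma called 3 higher (2892 of 7794 genes) and 3 lower (1916), with a median of -0.22, against 0.24 for all genes. With the scaled sizes, limma called 1 higher (22.4% of all genes) and 3 lower (32.9%) against bone marrow, near the latter share. Between blood and bone marrow it called 2 higher in blood (20.6%) and 0 lower (23.6%, with 1 at an unadjusted p under 0.05, and 3 by limma-voom).

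Of 33 genes of lysosomal sensing, 19 were tested by limma, with 8 higher (28.1% of all genes) and 2 lower (34.5%) in tumor than in blood and a median of 0.23, against -0.17 for all genes. Against bone marrow 6 were higher (22.4% of all genes) and 4 lower (32.9%). Of the 19, Seh1l (3.0 ± 0.24, log2, adjusted p = 2.5e-05), a subunit of GATOR2 and the nuclear pore, and Mlst8 (2.72 ± 0.34, adjusted p = 0.00025), an mTOR partner, had the largest rises against blood. Seh1l was also higher in tumor than in bone marrow (2.83, adjusted p = 3.9e-05), whereas Mlst8 was lower there (-2.63, adjusted p = 0.00035), with 7 to 13 reads in blood and 538 to 590 in bone marrow, so its low compartment was blood. Lamtor4 (-1.07 ± 0.25, adjusted p = 0.0066), a Ragulator subunit, and Sesn2 (-0.98 ± 0.18, adjusted p = 0.0017), the leucine sensor, were the 2 called lower by limma. Sesn2 was not called in tumor against bone marrow (0.17, adjusted p = 0.44). Limma-voom tested 32 of the list against blood and called 14 higher (33.1% of all genes) and 3 lower (21.9%). Its largest rises were Gatsl2 (4.28 ± 0.86, adjusted p = 0.00081) and Deptor (3.94 ± 0.66, adjusted p = 0.00019), its largest fall Sesn1 (-3.10 ± 0.60, adjusted p = 0.00057). Between blood and bone marrow limma called 3 higher (20.6% of all genes) and 3 lower (23.6%) in blood.

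Of 23 amino acid enzymes, 10 were tested by limma, with 6 higher (28.1% of all genes) and 3 lower (34.5%) in tumor than in blood and a median of 1.49, against -0.17 for all genes. Phgdh (5.59 ± 0.56, log2, adjusted p = 7.8e-05), the first enzyme of serine synthesis, rose most of these 10, and was also higher than in bone marrow (2.34, adjusted p = 0.0081). Bckdha (-1.34 ± 0.23, adjusted p = 0.0014), of branched-chain ketoacid breakdown, and Glul (-1.18 ± 0.21, adjusted p = 0.0015), glutamine synthetase, fell most. Both were higher in blood than in bone marrow (1.12, adjusted p = 0.006, and 0.73, adjusted p = 0.024). In tumor against bone marrow neither was called (-0.22, adjusted p = 0.44, and -0.45, adjusted p = 0.10). Against bone marrow limma called 2 higher (22.4% of all genes) and 2 lower (32.9%), shares close to or below those of all genes, with a median of -0.46. Limma-voom tested 22 of the list and called 10 higher (29.3% of all genes) and 4 lower (21.0%) there. Its median was 0.12, against 0.27 for all genes. Among the 10 was Bcat1, with at most 3 reads in any library outside tumor, so it passed the limma-voom filter through the tumor libraries alone. Against blood limma-voom called 14 higher (33.1%) and 3 lower (21.9%), and Bcat1 was among these 14 too. By limma, blood had 2 higher (20.6%) and 6 lower (23.6%) than bone marrow, with a median of -1.73, so the low compartment of this list was blood.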

How the data were processed

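RNA from sorted neutrophils (9 libraries, 3 per compartment) was sequenced after SMARTSeq v2. By the methods each experiment used 1 pool of 5 mice for all compartments, so compartments share animals, but the labels do not say which libraries share a pool. Per the methods and the submitters' processing notes, the authors mapped reads to GRCm38 with STAR 2.5.2b, counted them on GENCODE genes with featureCounts 1.5.0 and used edgeR 3.8.6, and the study tested compartments with limma-voom. The deposited values are log2 FPKM of 46517 genes, with 0.25 reads (at the mean library size) added before the log and with scaled library sizes. The scaling factors were 1.15 ± 0.069 (SD, n = 3) for tumor, 0.841 ± 0.023 for blood and 0.840 ± 0.043 for bone marrow. Whole reads were recovered for all 46517 genes (within 1e-06 reads). Per library they summed to 5446499 to 6969557 (tumor), 4580807 to 6830374 (blood) and 7108871 to 7949367 (bone marrow).

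The main test was run in R 4.3.3 with limma 3.58.1 (1 coefficient per compartment, moderated by eBayes with a trend on intensity, no block) on log2 FPKM over 0 in at least 3 libraries, adjusted by Benjamini-Hochberg over 7794 genes at a threshold of 0.05. Since lengths with introns left 8 members, limma-voom on the recovered reads with scaled library sizes and the study's filter of 5 reads, planned as an alternative, is reported beside it. It called 5871 genes higher and 3888 lower in tumor than in blood. Both fits and the recovery were tested on simulated data. Exon lengths, positions and overlaps came from GENCODE M21 (GRCm38), in which 46005 identifiers were found, and promoters from RefSeq. Counting intervals are exact binomial ones at 95%, and the floor is 3 reads over a group.

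The members, lists and tests were chosen with earlier results of these data known. Every member was to be named, with values per library for those called, and from each further list the 2 called genes with the largest and the 2 with the smallest fold change in tumor against blood. One gene of the enzyme list that this rule picks, and the alleles of the tumor line, are not reported here. Alternatives were other filters, pseudocounts, normalizations, library totals, the trend, the replicate block, a fold threshold, 2 compartments only and each library left out. For limma-voom, the plain totals, block, fold threshold and libraries left out were chosen after seeing the data.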

Additional observations from a re-analysis of the deposited data

How the results depend on the processing

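Of the log2 FPKM results past the threshold, 255 alternative values kept direction and call and 22 lost the call, and for limma-voom the numbers were 226 and 38. Of the values past the threshold under either setting 1 turned, Slc38a2 in tumor against bone marrow, at 0.39 with plain library totals (limma-voom gave 0.39 there too, adjusted p = 0.0126). A change of sign without a call on either side occurred in 6 values of log2 FPKM and 21 of limma-voom. Counts of members called by limma changed with the filter. The counts in this section are given without shares of all genes and are not read against them. Without a filter, 40 members were tested. The counts were then 11 higher and 2 lower in tumor than in blood, and 9 higher and 1 lower than in bone marrow. In blood against bone marrow 1 was higher and 1 lower. With log2 FPKM over 2 the counts were 1 higher and 1 lower, 1 higher, and 1 higher and 0 lower, since fewer members were tested. With limma-voom they were 13 higher and 3 lower in tumor than in blood, 12 higher and 2 lower than in bone marrow, and 4 higher and 5 lower in blood than in bone marrow. Lower members in tumor against blood were 1 with quantile normalization or with 2 compartments only, and 0 with plain totals or a log2 fold change threshold of 1. That threshold left 3 higher in tumor than in bone marrow and 1 in each direction for blood against bone marrow. Quantile normalization left 1 higher and the fit of 2 compartments 1 lower in blood than in bone marrow. For limma-voom, plain totals or the fold threshold each left 1 lower in both tumor contrasts.

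With single libraries left out, limma called 3 to 5 higher and 1 to 2 lower in tumor than in blood, 2 to 5 higher and 0 to 1 lower than in bone marrow, and 1 to 3 higher and 1 to 2 lower in blood than in bone marrow. Limma-voom called 11 to 14 higher and 2 to 4 lower, 10 to 14 higher and 1 to 3 lower, and 2 to 4 higher and 2 to 5 lower. A lone tumor library fewer removed Slc7a6 and Slc38a7 through the filter. The cause of the other shifts was not tested.

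Replicate numbers are shared between compartments, and the methods describe shared pools of mice, but the labels do not say that a number marks one. Deviations of same-numbered libraries from their group means correlated at -0.071 to 0.108, not over 0.1 in every pair, and not every library correlated best with its own number. With the replicate block limma called 1 member lower in tumor than in bone marrow, and the other counts stayed within 1.5 times. Depth limits the members below 20 reads in every library, whose folds rest on a few reads.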

Other observations

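Several members lie near each other in the genome, and nearby members did not always move together. Other genes between them were not looked for. On chr15, Slc38a1 (96571418 to 96642913), Slc38a2 (96687392 to 96699730) and Slc38a4 (96994820 to 97055956) follow each other on the minus strand. In tumor against blood, limma-voom gave Slc38a1 a log2 difference of 1.31 ± 0.32, Slc38a2 one of -0.56 ± 0.14 (adjusted p = 0.0031) and Slc38a4 one of 2.91 ± 1.39. On chr11, Slc36a3 was low in bone marrow, while the nearby Slc36a2 (0.47 ± 0.81, blood against bone marrow, limma-voom adjusted p = 0.74) and Slc36a1 (-0.24 ± 0.49, adjusted p = 0.79) were not called. On chr2, Slc43a1 (84838850 to 84863594) and Slc43a3 (84936579 to 84958509) both had their fewest reads in blood. On chr14, Slc7a7 (54369442 to 54417780) and Slc7a8 (54722209 to 54781946) were both called higher in tumor than in blood by limma-voom. The differences between nearby members were not tested.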
